A study of Homo sapiens with 29 samples.

Results

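The genes described are 50 genes of the G2 phase and mitosis, chosen by gene symbol in the array's annotation. The rule used no measured value, but the list was drawn up with earlier results of these data known. They were represented by 102 of the 54675 probe sets on the array. Each gene was read through its probe set of highest mean level, and 49 of the 50 passed the level minimum for testing, beside 12174 genes tested in all. INCENP, a scaffold of the chromosomal passenger complex, stayed under the minimum, an intensity of 37.4, at means of 28.7 at 500 nM, 34.2 at 1000 nM and 31.4 in DMSO, and was not tested. Its 3 values at 500 nM were identical, at the probe set's median over all arrays. RNA was measured in BEAS-2B, a line of human bronchial epithelial cells immortalised with a virus that carries the SV40 large T antigen, which binds p53 and RB. Cultures at about 70% confluence received N-OH-PhIP for 24 h at 0.1, 0.5, 1, 5, 10, 50, 100, 500 or 1000 nM, or the solvent DMSO alone, and all cultures held 1% DMSO. N-OH-PhIP is the hydroxylated metabolite of PhIP, a mutagen found in cooked meat and in tobacco smoke, and forms bulky DNA adducts. Every group had 3 arrays, except 0.5 nM with 2, and the study asked which dose is the lowest to change transcription.

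Entry into mitosis depends on cyclin B bound to the kinase CDK1, which CDC25 phosphatases, PLK1 and Aurora A help to activate. The spindle checkpoint then holds back the anaphase-promoting complex until kinetochores are attached, after which CDC20 directs the destruction of securin and cyclin B. Most of these genes are transcribed late in the cell cycle through the activators B-MYB and FOXM1. After DNA damage p53 induces CDKN1A (p21), and the DREAM complex then represses many of them through a promoter element named CHR, often with CCAAT boxes that bind NF-Y upstream. The array measures RNA of whole cultures, so fewer cells in G2 and mitosis and less RNA in each such cell cannot be told apart.

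Promoter windows from RefSeq (build GRCh38.p14), 250 bases before to 50 after a gene's start, were matched for 43 of the 50 genes, 55 windows in all. The windows below belong to genes whose values the results turn on, with CHR hexamers (TTTGAA, or TTCAAA where it lies on the other strand) and CCAAT boxes (CCAAT or ATTGG) in capitals. CDCA3 (chr12:6851237-6851536, minus strand) and KIF18A (chr11:28108107-28108406, minus strand) had the largest falls at 500 and 1000 nM, CCNB1 (chr5:69166900-69167199, plus strand) and CCNB2 (chr15:59104896-59105195, plus strand) encode B-type cyclins, and CDK1 (chr10:60778081-60778380, plus strand, the first of 2 windows) and KIF20A (chr5:138178862-138179161, plus strand) rose.
CDCA3: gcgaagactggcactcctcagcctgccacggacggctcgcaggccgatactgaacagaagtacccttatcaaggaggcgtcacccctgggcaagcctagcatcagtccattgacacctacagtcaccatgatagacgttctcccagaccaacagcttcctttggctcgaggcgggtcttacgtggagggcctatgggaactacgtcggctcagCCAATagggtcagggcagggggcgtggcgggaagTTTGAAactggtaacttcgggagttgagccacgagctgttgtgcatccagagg
KIF18A: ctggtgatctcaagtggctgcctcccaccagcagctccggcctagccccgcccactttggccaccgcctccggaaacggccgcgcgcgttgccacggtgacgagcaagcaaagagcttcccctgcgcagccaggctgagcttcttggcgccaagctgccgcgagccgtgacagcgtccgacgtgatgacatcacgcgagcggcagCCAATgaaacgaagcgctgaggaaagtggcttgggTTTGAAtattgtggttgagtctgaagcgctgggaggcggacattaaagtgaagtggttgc
CCNB1: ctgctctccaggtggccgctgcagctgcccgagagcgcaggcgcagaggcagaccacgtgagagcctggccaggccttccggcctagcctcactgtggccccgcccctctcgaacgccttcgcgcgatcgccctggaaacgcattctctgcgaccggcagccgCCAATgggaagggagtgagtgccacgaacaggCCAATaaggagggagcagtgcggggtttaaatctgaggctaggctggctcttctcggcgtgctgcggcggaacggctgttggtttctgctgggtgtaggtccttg
CCNB2: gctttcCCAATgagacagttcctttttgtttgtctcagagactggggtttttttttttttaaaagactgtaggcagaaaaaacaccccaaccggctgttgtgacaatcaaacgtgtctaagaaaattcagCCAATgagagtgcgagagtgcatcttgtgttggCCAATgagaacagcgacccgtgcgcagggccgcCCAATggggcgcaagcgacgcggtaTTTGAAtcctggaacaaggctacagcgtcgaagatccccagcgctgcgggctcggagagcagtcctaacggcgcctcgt
CDK1: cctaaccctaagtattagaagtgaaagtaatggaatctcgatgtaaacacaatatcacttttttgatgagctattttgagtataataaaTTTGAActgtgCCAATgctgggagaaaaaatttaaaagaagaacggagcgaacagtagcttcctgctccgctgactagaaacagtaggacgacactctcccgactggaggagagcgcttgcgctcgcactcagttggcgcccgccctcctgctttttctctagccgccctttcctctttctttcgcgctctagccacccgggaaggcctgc
KIF20A: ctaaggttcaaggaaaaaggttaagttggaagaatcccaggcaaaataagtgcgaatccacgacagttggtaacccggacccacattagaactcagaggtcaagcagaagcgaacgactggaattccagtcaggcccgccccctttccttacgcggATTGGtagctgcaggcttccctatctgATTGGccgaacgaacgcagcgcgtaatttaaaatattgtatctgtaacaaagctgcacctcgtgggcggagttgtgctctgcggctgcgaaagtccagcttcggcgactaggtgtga
The windows of CDCA3 and KIF18A each held a CCAAT box followed by a CHR hexamer close to the start, 3 and 10 bases upstream of it. The window of CCNB2 held 4 CCAAT boxes and a CHR hexamer 29 bases upstream. In the windows of CCNB1 and KIF20A there were CCAAT boxes but no CHR hexamer of these exact letters, from which nothing follows about what binds there. Over the 55 windows, 63.6% held a CHR hexamer and 72.7% a CCAAT box, against 15.2% and 34.6% of all 35116 windows in the table. Both motifs stood in 50.9% of the windows, against 5.9% of all windows. Counted by gene, 32 of 43 had a CHR hexamer in some window, against 15.8% of 15843 protein-coding genes. Of the 47 CHR matches, counted in each window, 37 lay from 100 bases upstream onward, with a median of 23 bases upstream of the start. Where windows of a gene overlap, as for CDC25C and ECT2, the same hexamer can be counted more than once, at different distances. A match of letters is a description and not a measured binding site.

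**Figure D1:**
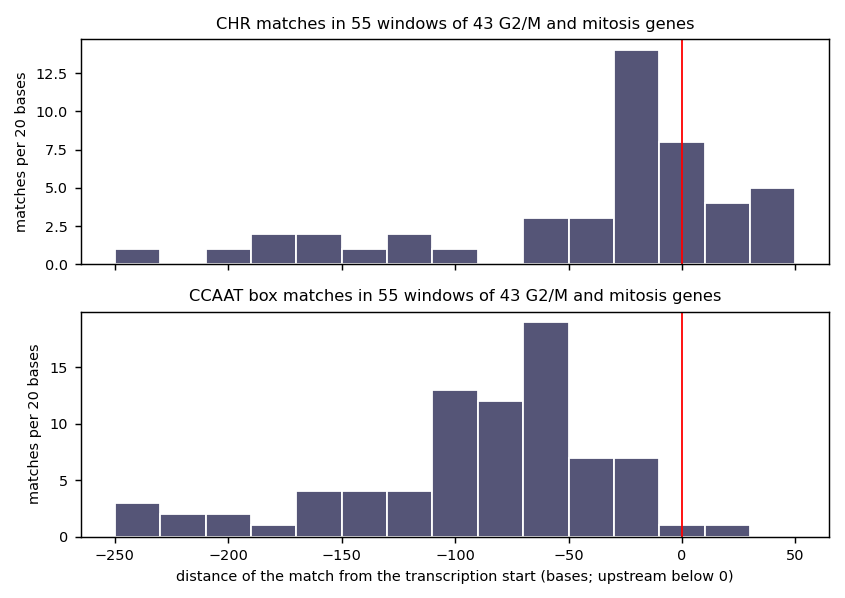
Number of CHR matches (top) and CCAAT box matches (bottom) per 20 bases against distance from the transcription start in bases, in 55 promoter windows of 43 G2/M and mitosis genes. The red line is the start, and 37 of the 47 CHR matches lie from 100 bases upstream onward. A match in overlapping windows of a gene is counted in each.

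Intensities are the authors' normalized values, and differences are on the log2(intensity + 16) scale. A change was called at an adjusted p below 0.05 (limma, adjusted over all 27307 tested probe sets). The 3 DMSO arrays served every comparison of a dose with solvent, which are therefore not independent of each other. The labels call the cultures triplicate and say no more of their origin, so p-values measure the spread between these cultures, and the number of arrays limits the precision. Arrays of a group correlated at 0.980 to 0.998, lowest among the 500 nM arrays. Of 7 epithelial markers on the array, 6 (KRT8, KRT18, KRT19, KRT5, EPCAM and CDH1) were above the minimum, and KRT14 was under it, at a mean of 17.2. Of the markers of other cell types on the array, 2 of 6 leukocyte markers (CD14 and LCP1), 0 of 6 endothelial markers and 1 of 7 fibroblast markers (COL1A1) were above it. The summed epithelial level ran from 22010 to 23490 at 1000 nM, from 23657 to 26417 at 500 nM and from 19584 to 20362 in DMSO. The summed leukocyte level ran from 188.6 to 208 at 1000 nM, from 142 to 162 at 500 nM and from 123 to 143 in DMSO. The fibroblast sum ran from 836 to 923 at 1000 nM, from 1020 to 1180 at 500 nM and from 656 to 740.0 in DMSO. The endothelial sum ran from 112 to 127 at 1000 nM, from 108 to 115 at 500 nM and from 93.8 to 103 in DMSO. All 4 sums were higher at both doses than in DMSO, without overlap except for the leukocyte sum at 500 nM. The endothelial sum held only markers under the level minimum, an intensity of 37.4. Most of the fibroblast sum was COL1A1, at a mean of 713.5 over all arrays, with every other marker at 20.6 or less. In the leukocyte sum CD14 and LCP1 had means of 49.5 and 57.5, not far above the minimum. The part of other cells in the results was not tested.

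At 1000 nM, 9 of the 49 genes rose and 25 fell. Over all genes tested, 27.3% rose and 35.8% fell at this dose, beside 18.4% and 51% of the 49 genes. At 500 nM, 11 rose and 22 fell, while 25.2% of all genes rose and 24.8% fell. The median log2 difference of the 49 genes was -0.13 at 1000 nM and -0.16 at 500 nM, beside -0.04 and 0.01 over all genes. Few changes were large: 7 of the 49 at 1000 nM and 1 at 500 nM were called and at least 1.5-fold, against 23.1% and 13.5% of all genes tested.

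CDK1, PTTG1, KIF2C, SPAG5, KIF20A and MKI67 were called higher at 500 nM and at 1000 nM. Both comparisons use the same DMSO arrays, so like calls at both doses are not independent of each other. Called at 500 nM alone were CDC25B, ESPL1, DLGAP5, ECT2 and KIF20B, which rose, and UBE2C and KIF23, which fell. Called at 1000 nM alone were TTK, CDCA8 and NEK2, which rose, and BUB1B, BUB3, CDC20, TPX2 and PLK4, which fell. In the direct comparison of 1000 nM with 500 nM, 11 of these 15 differed, all but CDC25B, ESPL1, KIF23 and TTK. Several of these calls were lost without 1 array. TPX2 lost it without any of 5 arrays, 500 nM replicates 1 and 2 and each 1000 nM replicate (adjusted p from 0.0606 to 0.253). CDC20 lost it without 500 nM replicate 2 (-0.10, adjusted p = 0.321) or 1000 nM replicates 2 or 3 (0.0771 and 0.111). BUB3 lost it without 500 nM replicate 1 or 1000 nM replicate 1 (0.082 and 0.0547), and PLK4 without 500 nM replicate 3 (0.0637). NEK2 lost it without 500 nM replicates 1 or 2 or 1000 nM replicate 3 (0.0581 to 0.0839). With the average over its probe sets PLK4 was higher at 1000 nM than at 500 nM, at 0.27. The log2 ratio of 3′ to 5′ signal, averaged over the actin and GAPDH controls, is a measure of RNA and amplification quality. This mean ratio moved with these results, at 0.93 ± 0.081 at 500 nM and 0.84 ± 0.020 at 1000 nM, against 1.17 ± 0.040 in DMSO (SD, n = 3 each). Only the actin ratio fell, to 1.595, 1.892 and 1.513 at 500 nM and 1.528, 1.539 and 1.471 at 1000 nM. In DMSO it was 2.254, 2.238 and 2.119. The GAPDH ratio was 0.226, 0.149 and 0.212 at 500 nM, 0.155, 0.182 and 0.174 at 1000 nM and 0.154, 0.142 and 0.137 in DMSO. With the mean ratio of both controls as a covariate 12 genes rose and 12 fell at 1000 nM, and 12 rose and 16 fell at 500 nM. Over all 12174 genes, 5397 were called at 1000 nM and 4898 at 500 nM with the ratio. Without it 3318 of all genes rose and 4364 fell at 1000 nM, and 3067 rose and 3015 fell at 500 nM. Fewer genes were thus called with the ratio across the whole array as well. Calls lost with it at 1000 nM were those of CCNA2, CCNB2, PLK1, BUB1, BUB3, CDC20, CENPA, CENPF, NUF2, TPX2, PRC1, TOP2A and KIF4A, and at 500 nM those of CCNB2, BUB1, CENPF, NDC80, KIF18A, PRC1, TOP2A and KIF4A. Calls were also gained. Of the 24 genes called with the ratio at 1000 nM, 21 were called without it, and of the 28 at 500 nM, 25 were. With only the 500 nM and DMSO arrays in the fit, 6 genes rose and 16 fell at 500 nM. The ratio moves with dose itself, so the effects of dose and RNA quality cannot be told apart by this fit.

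**Figure D2:**
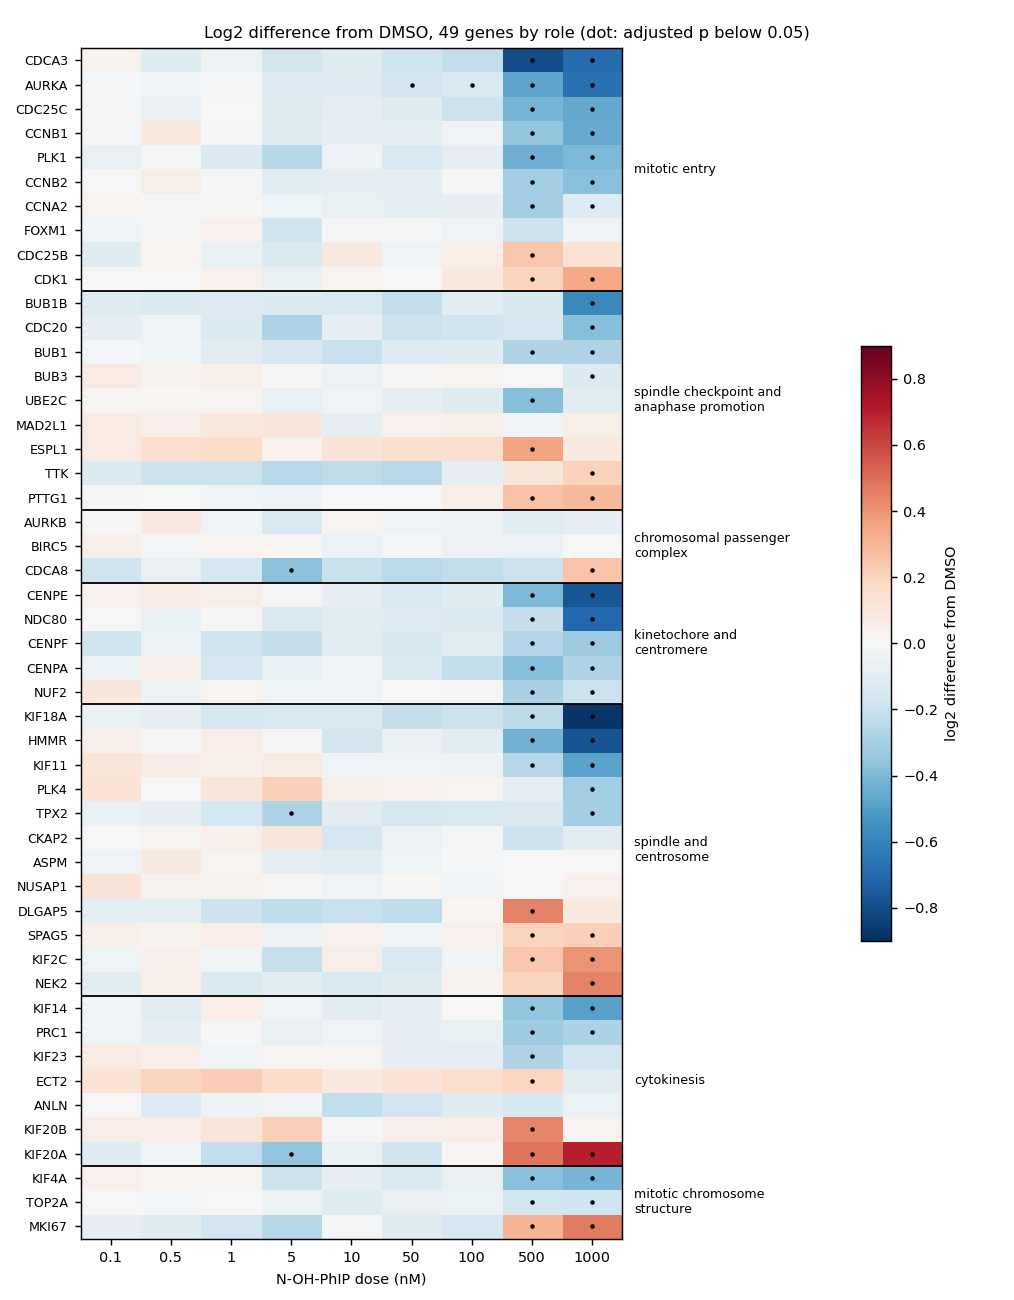
Log2 difference from DMSO (colour) of 49 G2/M and mitosis genes (vertical axis, grouped by role) at each of 9 doses of N-OH-PhIP (horizontal axis, nM), with a dot where the adjusted p was below 0.05. Dots stand mainly in the columns of 500 and 1000 nM, where 33 and 34 genes were called, and both directions occur within most roles.

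Among 10 genes of mitotic entry, 7 fell at 1000 nM and 1 rose, and 7 fell and 2 rose at 500 nM. For this role and those below, the background is the share of all genes. Of these, 27.3% rose and 35.8% fell at 1000 nM, and 25.2% rose and 24.8% fell at 500 nM. In their brightest probe sets, the cyclins and the kinase they activate went opposite ways. The tested probe sets of CCNB1 had the same call at both doses. Some were called and others not for CCNB2 at both doses, for CDK1 at 500 nM and for CCNA2 at 1000 nM. CCNB1, cyclin B1, had intensities of 2908, 3303 and 3250 at 500 nM and 2964, 2908 and 2943 at 1000 nM, against 3882, 4166 and 4059 in DMSO. Every culture at both doses lay below every DMSO culture, and the log2 differences were -0.36 (SE 0.045, adjusted p = 3.79e-07) at 500 nM and -0.46 (SE 0.045, adjusted p = 2.58e-09) at 1000 nM. CCNB2, cyclin B2, differed by -0.31 (SE 0.052, adjusted p = 2.61e-05) at 500 nM and -0.37 (SE 0.052, adjusted p = 8.6e-07) at 1000 nM, also without overlap. CCNA2, cyclin A2, which acts with CDK2 and CDK1 in S phase and G2, had 2543, 2556 and 2382 at 500 nM and 2895, 2760 and 2928 at 1000 nM, against 3226, 3083 and 2978 in DMSO. It was lower at 500 nM than at 1000 nM, with differences of -0.31 (SE 0.043, adjusted p = 1.55e-06) at 500 nM and -0.11 (SE 0.043, adjusted p = 0.0264) at 1000 nM. CDK1, the kinase that drives mitosis, had 2907, 2873 and 2765 at 500 nM and 3209, 2948 and 3309 at 1000 nM, against 2435, 2522 and 2473 in DMSO. All 6 exposed cultures lay above DMSO, and the differences were 0.20 (SE 0.052, adjusted p = 0.0025) at 500 nM and 0.35 (SE 0.052, adjusted p = 2.33e-06) at 1000 nM.

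AURKA, CDCA3, PLK1 and CDC25C fell at both upper doses, while CDC25B rose at 500 nM. AURKA, the Aurora A kinase of centrosomes and spindle, had 3328, 3490 and 3190 at 500 nM and 2952, 2928 and 2861 at 1000 nM, against 4577, 4763 and 4588 in DMSO. The 3 groups did not overlap, and the differences were -0.48 (SE 0.035, adjusted p = 2.93e-11) at 500 nM and -0.67 (SE 0.035, adjusted p = 1.85e-14) at 1000 nM. CDCA3, a substrate-recognition protein that targets the mitotic inhibitor WEE1 for destruction, had 826, 955 and 805 at 500 nM and 879, 957 and 939 at 1000 nM, against 1420, 1609 and 1499 in DMSO. It was the only gene of the 49 past 1.5-fold at 500 nM, with differences of -0.80 (SE 0.063, adjusted p = 9.87e-11) at 500 nM and -0.70 (SE 0.063, adjusted p = 5.45e-10) at 1000 nM, and both dose groups lay well under DMSO. PLK1, polo-like kinase 1, had 173, 183 and 162 at 500 nM and 171, 181 and 177 at 1000 nM, against 219, 258 and 242 in DMSO. All exposed cultures were below DMSO, with differences of -0.44 (SE 0.082, adjusted p = 9.96e-05) at 500 nM and -0.41 (SE 0.082, adjusted p = 0.000129) at 1000 nM.

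CDC25C, a phosphatase that activates CDK1, had 667, 746 and 713 at 500 nM and 635, 748 and 685 at 1000 nM, against 903, 1011 and 941 in DMSO, with no overlap. It differed by -0.42 (SE 0.067, adjusted p = 1.28e-05) at 500 nM and -0.46 (SE 0.067, adjusted p = 1.74e-06) at 1000 nM. Its relative CDC25B had 2888, 3115 and 2323 at 500 nM and 2543, 2577 and 2447 at 1000 nM, against 2206, 2282 and 2445 in DMSO. CDC25B rose at 500 nM (0.25, SE 0.073, adjusted p = 0.00606), where replicate 3 lay within the DMSO range, and was not called at 1000 nM, where all cultures lay above DMSO by a little (0.13, SE 0.073, adjusted p = 0.139). FOXM1, an activator of late cell cycle genes, had 1764, 2111 and 1395 at 500 nM and 1995, 1908 and 1866 at 1000 nM, against 1872, 2061 and 1990 in DMSO. The groups overlapped, 500 nM spread widely, and neither difference was called (-0.19 and -0.04). Left-out arrays ended the 1000 nM call of CCNA2 (DMSO replicate 1, adjusted p = 0.143; 1000 nM replicate 2, adjusted p = 0.125) and the 500 nM call of CDC25B (500 nM replicate 2, adjusted p = 0.0681). With the control ratio as a covariate the 1000 nM calls of CCNB2 and PLK1 were lost (adjusted p = 0.0846 and 0.0796), CCNA2 turned to 0.07 without a call, and FOXM1 was called higher at 0.51.

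**Figure D3:**
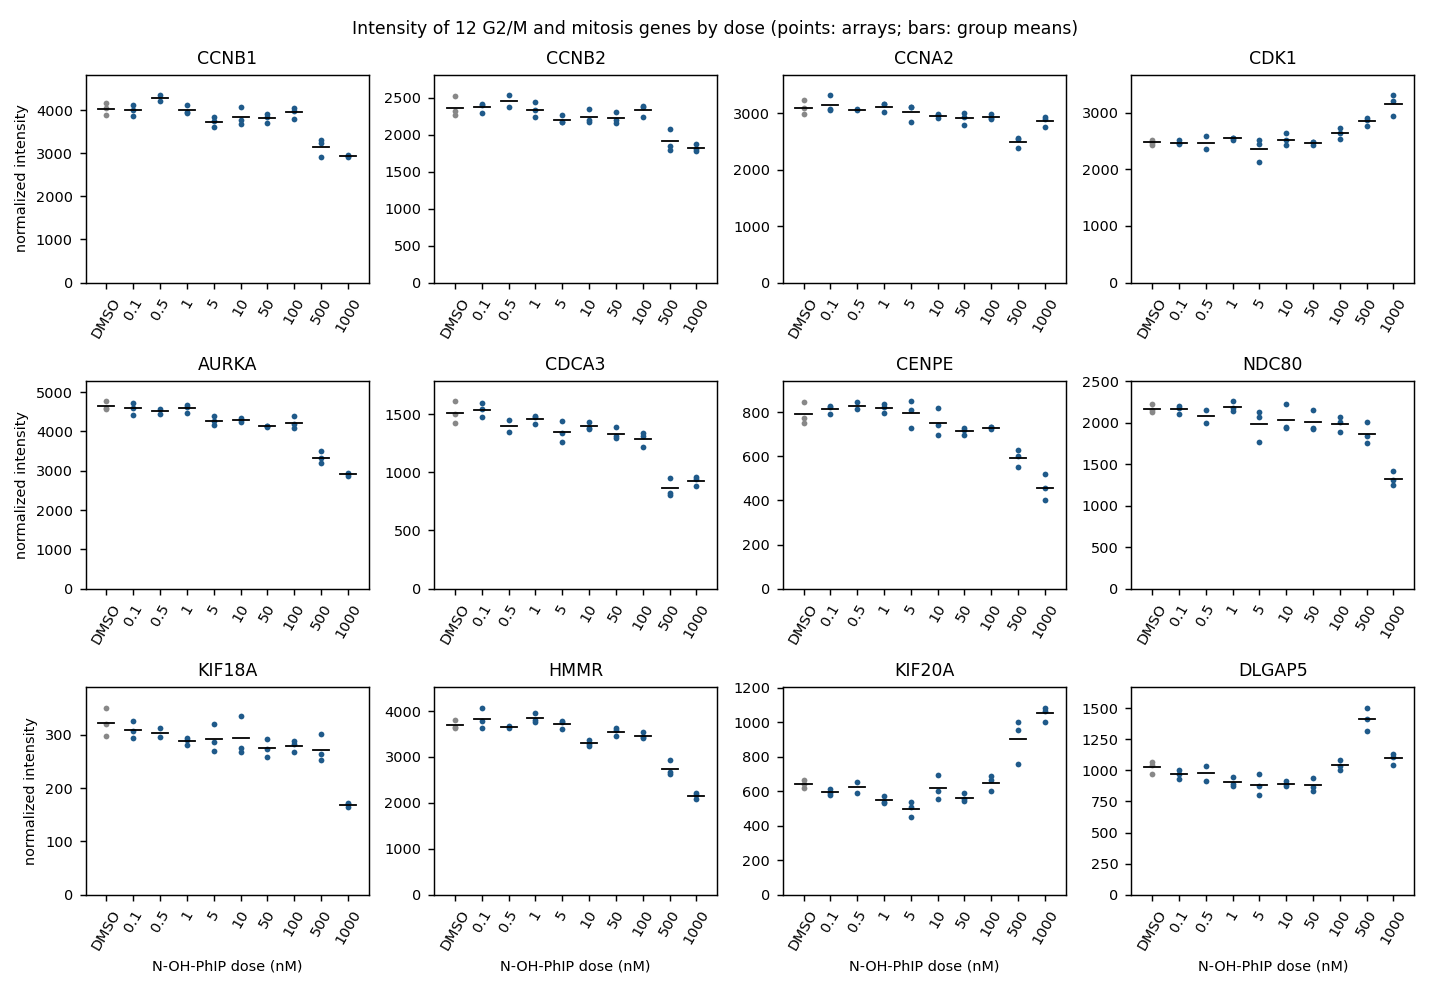
Normalized intensity (vertical axis, from 0) of 12 G2/M and mitosis genes in DMSO and at 9 doses of N-OH-PhIP (horizontal axis, nM), with a point for each array and a bar at the group mean. CCNB1, CCNB2, AURKA, CDCA3, CENPE and HMMR stand lower at 500 and 1000 nM than in DMSO, CDK1 and KIF20A stand higher, and KIF18A and NDC80 drop mainly at 1000 nM.

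Of 9 genes of the spindle checkpoint and anaphase promotion, 4 fell and 2 rose at 1000 nM, and 2 fell and 2 rose at 500 nM. These shares were near those of all genes, 35.8% lower and 27.3% higher at 1000 nM, and 24.8% and 25.2% at 500 nM. BUB1B, the checkpoint protein BUBR1 that binds CDC20, had 604, 542 and 624 at 500 nM and 409, 437 and 445 at 1000 nM, against 632, 688 and 636 in DMSO. The 3 groups did not overlap, and 1000 nM was lowest, with differences of -0.14 (SE 0.066, adjusted p = 0.0792) at 500 nM and -0.58 (SE 0.066, adjusted p = 2.62e-08) at 1000 nM. CDC20, the activator of the anaphase-promoting complex that the checkpoint inhibits, had 1315, 1692 and 1239 at 500 nM and 1257, 1178 and 1140 at 1000 nM, against 1541, 1563 and 1563 in DMSO. At 500 nM replicate 2 was above DMSO while the others were below it, and the differences were -0.15 (SE 0.087, adjusted p = 0.172) at 500 nM and -0.38 (SE 0.087, adjusted p = 0.000516) at 1000 nM. UBE2C, the ubiquitin-conjugating enzyme of that complex, had 1472, 1405 and 1694 at 500 nM and 1861, 1928 and 1787 at 1000 nM, against 1829, 2097 and 2046 in DMSO. It fell at 500 nM, where no culture reached the DMSO range, and its difference was -0.38 (SE 0.069, adjusted p = 4.97e-05), beside -0.10 (SE 0.069, adjusted p = 0.233) at 1000 nM.

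PTTG1, the securin that blocks separase, had 6753, 6984 and 6338 at 500 nM and 6744, 6995 and 6741 at 1000 nM, against 5233, 5850 and 5672 in DMSO. All exposed cultures were above DMSO, with differences of 0.26 (SE 0.043, adjusted p = 1.89e-05) at 500 nM and 0.29 (SE 0.043, adjusted p = 2.1e-06) at 1000 nM. ESPL1, the separase that cuts cohesin, had 445, 486 and 313 at 500 nM and 317, 386 and 308 at 1000 nM, against 271, 342 and 336 in DMSO. Its groups overlapped at both doses, and it was called at 500 nM alone (0.36, SE 0.13, adjusted p = 0.0237). The checkpoint kinases diverged: BUB1 differed by -0.27 (SE 0.083, adjusted p = 0.00925) at 500 nM and -0.27 (SE 0.083, adjusted p = 0.00647) at 1000 nM. TTK, the MPS1 kinase, differed by 0.10 (SE 0.083, adjusted p = 0.319) at 500 nM and 0.20 (SE 0.083, adjusted p = 0.0353) at 1000 nM. BUB3, a partner of BUB1 and BUBR1, was called at 1000 nM with a small difference in its brightest probe set (-0.13, SE 0.041, adjusted p = 0.00827). Averaged over its probe sets, BUB3 was called higher instead, at 0.11 (adjusted p = 0.0471). MAD2L1, the checkpoint protein MAD2, was not called (-0.03 at 500 nM and 0.05 at 1000 nM). Calls ended by a single left-out array were TTK at 1000 nM (DMSO replicates 1 and 2, and 1000 nM replicates 2 and 3, adjusted p from 0.0579 to 0.147), ESPL1 at 500 nM (DMSO replicate 1, 500 nM replicates 1 and 2, 0.0981 to 0.159) and BUB1 at 500 nM (500 nM replicate 1, 0.081). With the control ratio in the fit, CDC20 was at 0.02, BUB1 at -0.05 and BUB3 at -0.07 at 1000 nM, and their calls were lost.

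The chromosomal passenger complex, which corrects kinetochore attachments through Aurora B, had 1 rise among its 3 tested genes at 1000 nM and 0 calls at 500 nM (limma), where 1 of the 3 had an unadjusted p under 0.05. AURKB, Aurora B, had 1100, 1176 and 993 at 500 nM and 1130, 1134 and 1047 at 1000 nM, against 1137, 1214 and 1149 in DMSO. Its differences of -0.10 and -0.08 were not called. BIRC5, survivin, had 5150, 5308 and 5152 at 500 nM and 5314, 5546 and 5341 at 1000 nM, against 5464, 5362 and 5338 in DMSO. It lay below DMSO in all cultures at 500 nM and overlapped with it at 1000 nM, and its differences of -0.05 and 0.00 were not called. CDCA8, borealin, had 613, 667 and 518 at 500 nM and 847, 778 and 841 at 1000 nM, against 618, 769 and 676 in DMSO. It rose at 1000 nM (0.26, SE 0.086, adjusted p = 0.0124), where all 3 cultures lay above DMSO, and was at -0.20 (SE 0.086, adjusted p = 0.0669) at 500 nM. The value at 500 nM replicate 1 is the median of CDCA8 over all arrays, which stood exactly on 3 arrays, a repetition of unstated origin. Without DMSO replicate 1 the rise of CDCA8 was 0.18 with adjusted p = 0.0964.

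All 5 kinetochore and centromere genes fell at both upper doses, beside 35.8% of all genes at 1000 nM and 24.8% at 500 nM. CENPE, a kinesin that moves chromosomes to the spindle equator, had 553, 599.6 and 631 at 500 nM and 402, 519 and 456 at 1000 nM, against 773, 847 and 753 in DMSO. The groups did not overlap and stepped down with dose, with differences of -0.40 (SE 0.076, adjusted p = 0.000102) at 500 nM and -0.77 (SE 0.076, adjusted p = 2.47e-09) at 1000 nM. NDC80, the microtubule-binding subunit of the outer kinetochore, had 1759, 2005 and 1847 at 500 nM and 1310, 1415 and 1254 at 1000 nM, against 2156, 2133 and 2227 in DMSO. Most of its fall came at the top dose, with differences of -0.22 (SE 0.067, adjusted p = 0.00999) at 500 nM and -0.71 (SE 0.067, adjusted p = 1.11e-09) at 1000 nM. CENPF, a large kinetochore protein made in G2, had 681, 716 and 730.0 at 500 nM and 693, 688 and 651 at 1000 nM, against 826, 945 and 795 in DMSO. It lay below DMSO in all exposed cultures, with differences of -0.26 (SE 0.079, adjusted p = 0.00822) at 500 nM and -0.33 (SE 0.079, adjusted p = 0.000865) at 1000 nM.

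NUF2, the partner of NDC80, differed by -0.29 (SE 0.052, adjusted p = 4.24e-05) at 500 nM and -0.19 (SE 0.052, adjusted p = 0.00253) at 1000 nM. CENPA, the histone H3 variant of centromeres, differed by -0.38 (SE 0.11, adjusted p = 0.0077) at 500 nM and -0.27 (SE 0.11, adjusted p = 0.0439) at 1000 nM. Single arrays ended 1000 nM calls of CENPA (DMSO replicates 2 and 3, 1000 nM replicates 1 and 3, adjusted p from 0.0713 to 0.175) and the 500 nM calls of CENPF (DMSO replicate 2, 0.074) and NDC80 (500 nM replicate 1, 0.062). CENPF, CENPA and NUF2 lost the 1000 nM call with the control ratio as a covariate, while NDC80 and CENPE kept it, and CENPF and NDC80 lost the 500 nM call.

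Of 12 spindle and centrosome genes, 5 fell and 3 rose at 1000 nM, and 3 fell and 3 rose at 500 nM. These shares were near those of all genes, 35.8% lower and 27.3% higher at 1000 nM, and 24.8% and 25.2% at 500 nM. KIF18A, a kinesin that shortens kinetochore microtubules, had 264, 252 and 301 at 500 nM and 169.8, 171 and 164 at 1000 nM, against 350.96, 320.2 and 297 in DMSO. Its cultures at 1000 nM stood far below the rest, those at 500 nM overlapped with DMSO, and the differences were -0.23 (SE 0.086, adjusted p = 0.0289) at 500 nM and -0.88 (SE 0.086, adjusted p = 2.36e-09) at 1000 nM. HMMR, a spindle-assembly protein, had 2667, 2630 and 2943 at 500 nM and 2078, 2213 and 2180 at 1000 nM, against 3806, 3648 and 3640 in DMSO. The 3 groups were apart, with differences of -0.43 (SE 0.043, adjusted p = 7.77e-09) at 500 nM and -0.77 (SE 0.043, adjusted p = 5.23e-14) at 1000 nM. KIF11, the motor that pushes spindle poles apart, differed by -0.25 (SE 0.048, adjusted p = 0.000106) at 500 nM and -0.48 (SE 0.048, adjusted p = 3.13e-09) at 1000 nM. TPX2, the spindle protein that activates Aurora A, had 1976, 2114 and 1643 at 500 nM and 1711, 1698 and 1638 at 1000 nM, against 2091, 2207 and 1948 in DMSO. Only the 1000 nM cultures all lay below DMSO, and it differed by -0.13 (SE 0.068, adjusted p = 0.128) at 500 nM and -0.30 (SE 0.068, adjusted p = 0.000415) at 1000 nM. PLK4, the kinase of centriole duplication, differed by -0.31 (SE 0.068, adjusted p = 0.000279) at 1000 nM in its brightest probe set. Its 2 other tested probe sets rose, and the average over its probe sets was called higher at 0.30 (adjusted p = 0.000436).

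The genes of this group that rose had different dose patterns. NEK2, a kinase that splits centrosomes, had 747, 713 and 854 at 500 nM and 893, 917 and 939 at 1000 nM, against 632, 745 and 630.4 in DMSO. Its 1000 nM cultures lay above all others, and the differences were 0.20 (SE 0.083, adjusted p = 0.05) at 500 nM and 0.45 (SE 0.083, adjusted p = 4.46e-05) at 1000 nM, of which the first was not called. KIF2C, the microtubule depolymerase MCAK, had 740.4, 790.4 and 678 at 500 nM and 777, 847 and 843 at 1000 nM, against 603, 679 and 577 in DMSO. Replicate 3 at 500 nM lay within the DMSO range, and the differences were 0.24 (SE 0.081, adjusted p = 0.0164) at 500 nM and 0.40 (SE 0.081, adjusted p = 0.000131) at 1000 nM. DLGAP5, a spindle-stabilising protein, had 1409, 1317 and 1505 at 500 nM and 1045, 1110 and 1131 at 1000 nM, against 1047, 1071 and 973 in DMSO. It rose at 500 nM without overlap (0.45, SE 0.067, adjusted p = 5.15e-06) and overlapped with DMSO at 1000 nM (0.09, SE 0.067, adjusted p = 0.271). SPAG5, astrin, differed by 0.20 (SE 0.078, adjusted p = 0.0355) at 500 nM and 0.22 (SE 0.078, adjusted p = 0.0192) at 1000 nM.

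NUSAP1 (-0.01 and 0.04), ASPM (-0.01 and 0.00) and CKAP2 (-0.18 and -0.09), all bound to spindle microtubules, were not called at 500 or 1000 nM. KIF18A, KIF2C and SPAG5 each lost the 500 nM call when 1 of several arrays was left out, at an adjusted p of up to 0.151, 0.0858 and 0.291, and SPAG5 also at 1000 nM (up to 0.0926). For KIF18A these were DMSO replicates 1 and 2 and 500 nM replicates 1 and 2. For KIF2C they were DMSO replicates 1 and 3 and 500 nM replicate 2, and for SPAG5 at 500 nM the same arrays. At 1000 nM they were DMSO replicate 1 and 1000 nM replicates 1 and 2 for SPAG5. TPX2 stood at 0.03 at 1000 nM with the control ratio as a covariate and was not called.

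Of 7 cytokinesis genes, 2 fell and 1 rose at 1000 nM, shares under those of all genes (35.8% and 27.3%). At 500 nM 3 fell and 3 rose, beside 24.8% and 25.2% of all genes. KIF20A, the kinesin MKLP2 that carries the passenger complex to the midzone, had 954, 759.8 and 1000 at 500 nM and 1067, 1085 and 1001 at 1000 nM, against 617, 663 and 642 in DMSO. It had the largest rise among the 49 at both doses, every exposed culture was above DMSO, and the differences were 0.48 (SE 0.088, adjusted p = 7.89e-05) at 500 nM and 0.70 (SE 0.088, adjusted p = 1.66e-07) at 1000 nM. KIF20B, the kinesin MPP1, had 1491, 1302 and 1644 at 500 nM and 1084, 1136 and 1072 at 1000 nM, against 1093, 1024 and 1124 in DMSO. It rose at 500 nM alone, without overlap (0.44, SE 0.076, adjusted p = 3.09e-05), and was at 0.02 (SE 0.076, adjusted p = 0.813) at 1000 nM. ECT2, the exchange factor that activates RhoA at the cleavage furrow, differed by 0.19 (SE 0.071, adjusted p = 0.0282) at 500 nM and -0.09 (SE 0.071, adjusted p = 0.272) at 1000 nM.

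PRC1, which bundles midzone microtubules, differed by -0.32 (SE 0.067, adjusted p = 0.0003) at 500 nM and -0.28 (SE 0.067, adjusted p = 0.0007) at 1000 nM. KIF14, a kinesin of the midbody, differed by -0.35 (SE 0.062, adjusted p = 4.44e-05) at 500 nM and -0.49 (SE 0.062, adjusted p = 1.64e-07) at 1000 nM, with no overlap with DMSO. KIF23, the kinesin MKLP1, fell at 500 nM (-0.28, SE 0.089, adjusted p = 0.013), and ANLN, anillin, was not called (-0.14 and -0.05). Single arrays ended the 500 nM calls of ECT2 (DMSO replicate 1, 500 nM replicates 2 and 3, adjusted p from 0.0525 to 0.175) and KIF23 (DMSO replicate 3 and 500 nM replicate 2, 0.0511 and 0.17). PRC1 lost both calls with the control ratio as a covariate (adjusted p = 0.259 at 500 nM and 0.814 at 1000 nM).

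Among the 3 genes of mitotic chromosome structure, 2 fell and 1 rose at both doses. TOP2A, the topoisomerase that untangles sister chromatids, had 3116, 3057 and 3328 at 500 nM and 3201, 3115 and 3091 at 1000 nM, against 3481, 3626 and 3528 in DMSO. All exposed cultures were below DMSO by small amounts, with differences of -0.16 (SE 0.041, adjusted p = 0.00195) at 500 nM and -0.18 (SE 0.041, adjusted p = 0.000572) at 1000 nM. KIF4A, a chromosome-bound kinesin, differed by -0.37 (SE 0.074, adjusted p = 0.000177) at 500 nM and -0.42 (SE 0.074, adjusted p = 2.63e-05) at 1000 nM, and the 1000 nM difference was -0.03 with the control ratio as a covariate. MKI67, the proliferation marker Ki-67 that coats mitotic chromosomes, had 2120, 2512 and 2212 at 500 nM and 2489, 2817 and 2351 at 1000 nM, against 1756, 1907 and 1847 in DMSO. The exposed cultures were above DMSO, with differences of 0.31 (SE 0.076, adjusted p = 0.00179) at 500 nM and 0.47 (SE 0.076, adjusted p = 8.39e-06) at 1000 nM in its brightest probe set, which 2 of its other probe sets did not share.

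**Figure D4:**
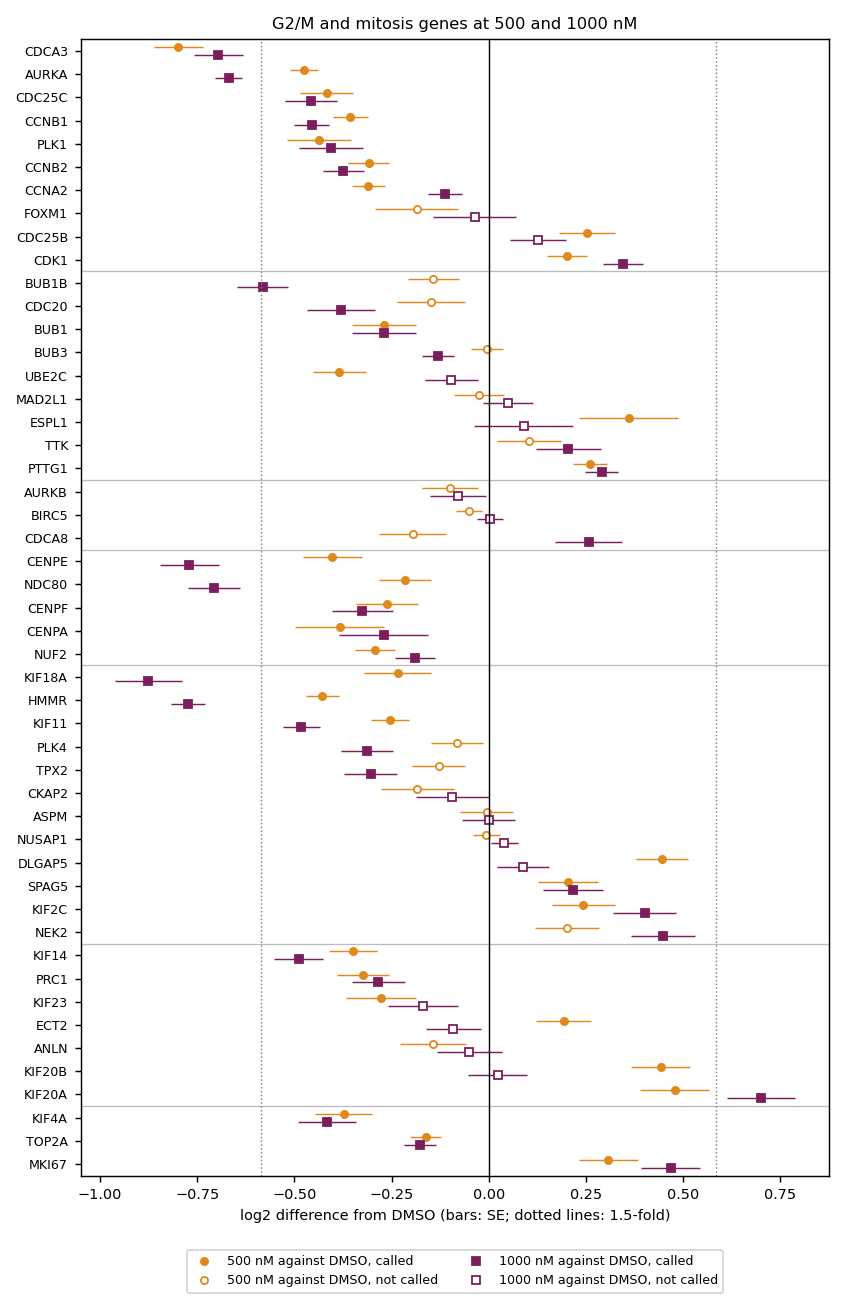
Log2 difference from DMSO with its SE (horizontal axis) for 49 G2/M and mitosis genes (vertical axis, ordered by role) at 500 nM (circles) and 1000 nM (squares), filled where the change was called. Dotted lines mark 1.5-fold, passed by 7 called genes at 1000 nM and by CDCA3 alone at 500 nM.

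Probe sets of the same gene did not always go the same way. Of 27 genes with 2 or more tested probe sets, 14 had the same call in all of them at 1000 nM, 10 had calls in some, and 3 had calls in opposite directions. MKI67 was split evenly. Its brightest probe set, 212022_s_at, gave the rise described above. Probe set 212021_s_at also rose, with 607, 737 and 663 at 1000 nM, against 402, 415 and 379 in DMSO, a difference of 0.72 (SE 0.092, adjusted p = 2.06e-07). Probe set 212020_s_at read 314, 365 and 306 at 1000 nM, against 505, 595 and 545 in DMSO. It fell without overlap, with a difference of -0.71 (SE 0.085, adjusted p = 6.51e-08), and 212023_s_at differed by -0.80 (SE 0.1, adjusted p = 2.88e-07). At 500 nM the 4 MKI67 probe sets were split in the same way.

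For BUB3, 3 probe sets fell at 1000 nM and 2 rose, among them 201457_x_at, with 2872, 2398 and 2398 at 1000 nM, against 1615, 1637 and 1642 in DMSO. That probe set differed by 0.64 (SE 0.061, adjusted p = 1.28e-09) and lay above DMSO in every culture, against -0.13 in the brightest. For PLK4 the brightest probe set fell, while 204887_s_at differed by 0.30 (SE 0.052, adjusted p = 1.94e-05) and 211088_s_at by 0.91 (SE 0.14, adjusted p = 2.1e-06). Averaged over all tested probe sets of a gene, 15 genes rose and 22 fell at 1000 nM. In that fit BUB3 (0.11), AURKB (0.21), PLK4 (0.30), ASPM (0.33) and CKAP2 (0.38) were called higher, and CCNA2, BUB1 and MKI67 were not called.

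**Figure D5:**
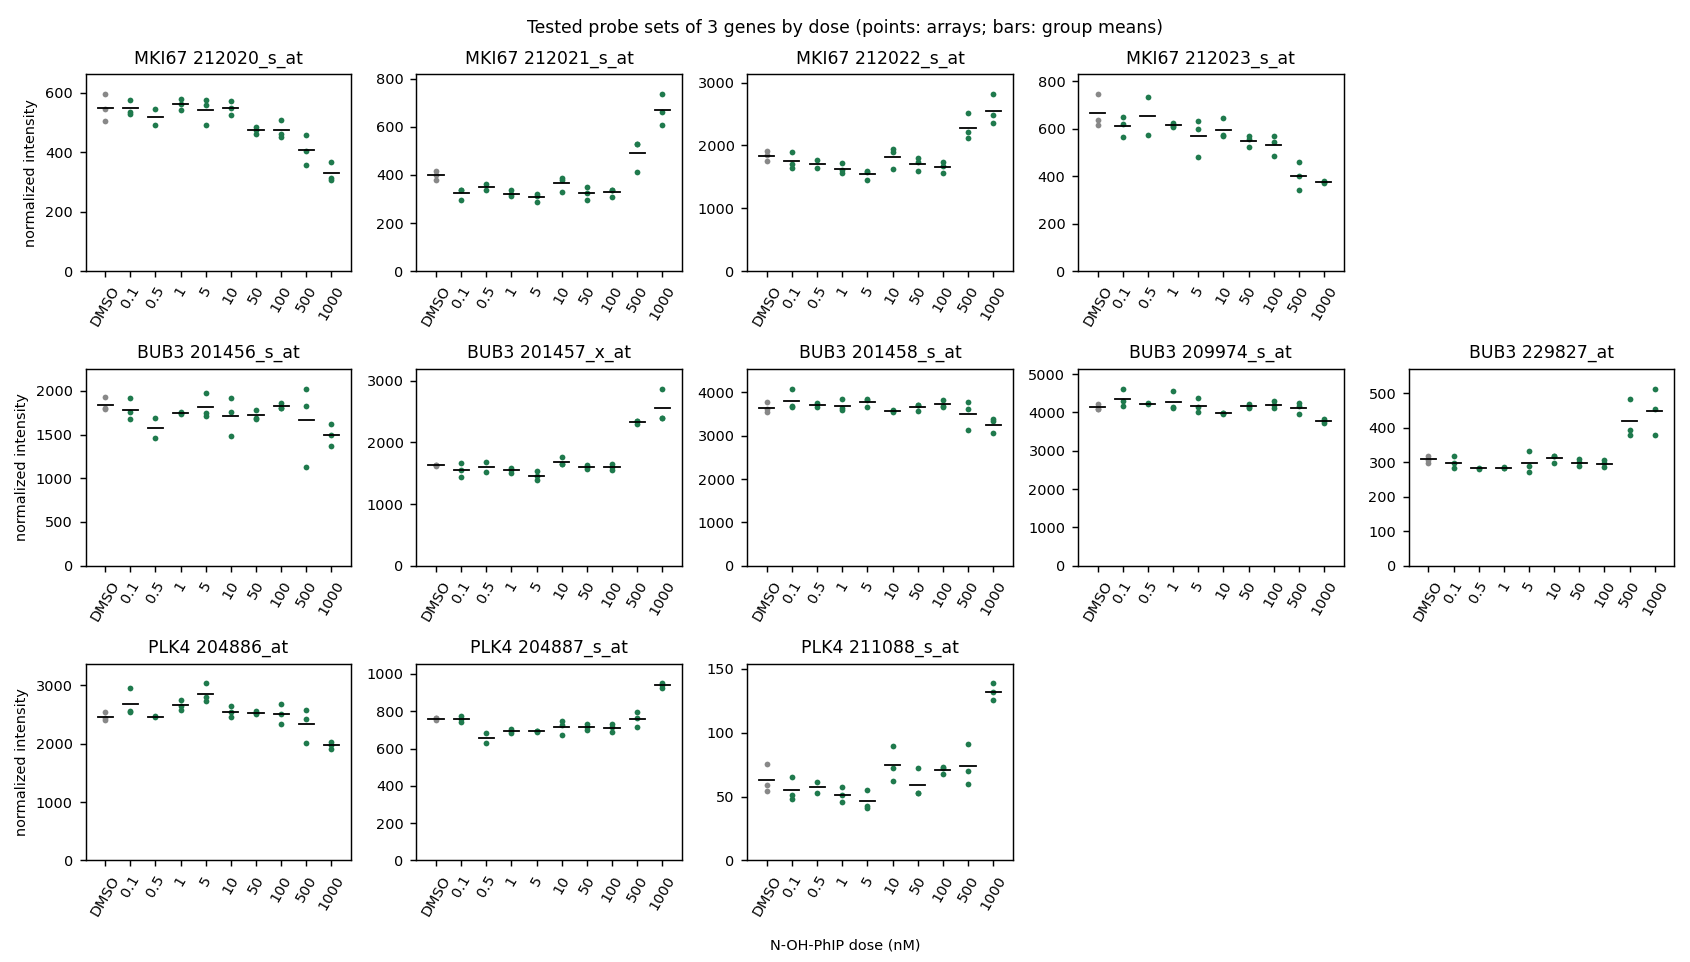
Normalized intensity (vertical axis, from 0) of each tested probe set of MKI67, BUB3 and PLK4 in DMSO and at 9 doses of N-OH-PhIP (horizontal axis, nM), with a point for each array and a bar at the group mean. Of the 4 MKI67 probe sets, 2 rise and 2 fall at 500 and 1000 nM.

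At doses up to 100 nM few of these genes were called. At 0.1, 0.5, 1 and 10 nM 0 of the 49 passed, with 3, 1, 7 and 9 at an unadjusted p under 0.05 (limma), while 0.427%, 0.0329%, 0.739% and 0.263% of all genes were called. At 5 nM 3 genes fell, while 0.977% of all genes were called, and 17 had an unadjusted p under 0.05. The percentages of all genes are of calls at an adjusted p. The share of all genes at an unadjusted p under 0.05 was not counted, so the unadjusted counts show nothing particular to the 49 genes. KIF20A had 507, 451 and 536 at 5 nM, against 617, 663 and 642 in DMSO. The groups did not overlap, and the difference of -0.36 (SE 0.088, adjusted p = 0.0436) was opposite in sign to those at 500 and 1000 nM. CDCA8 had 585, 502 and 498 at 5 nM, against 618, 769 and 676 in DMSO. It lay below DMSO in every culture (-0.37, SE 0.086, adjusted p = 0.0315), while it rose at 1000 nM. TPX2 had 1847, 1683 and 1606 at 5 nM, against 2091, 2207 and 1948 in DMSO, also without overlap (-0.28, SE 0.068, adjusted p = 0.0393).

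AURKA was the only one of the 49 called at 50 nM and at 100 nM, where 0.287% and 3.89% of all genes were called. It had 4135, 4114 and 4131 at 50 nM and 4402, 4191 and 4086 at 100 nM, against 4577, 4763 and 4588 in DMSO. All 6 of these cultures were below DMSO, and the differences were -0.17 (SE 0.035, adjusted p = 0.038) and -0.14 (SE 0.035, adjusted p = 0.0312). These 4 genes were called only narrowly. Without DMSO replicate 2 the number of genes called at any dose up to 100 nM was 0, without 500 nM replicate 2 it was 7, and with each array centred on its median or without a mean-variance trend it was 1. Without a level filter it was 0, and with the control ratio as a covariate it was 8. The adjusted p without DMSO replicate 2 was 0.208 for KIF20A, 0.235 for CDCA8, 0.235 for TPX2, and 0.239 and 0.17 for AURKA at 50 and 100 nM. The median of the 49 differences was between -0.08 and -0.05 from 5 to 100 nM, beside 0.02 to 0.03 over all genes.

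Along the 9 doses, 9 genes had a rising slope and 26 a falling one in their log2 level per 10-fold dose, beside 28.6% and 32.7% of all genes. The steepest falling slopes were those of CDCA3 at -0.18 (SE 0.024, adjusted p = 2.16e-06), CENPE at -0.17 (SE 0.025, adjusted p = 6.57e-06) and HMMR at -0.16 (SE 0.024, adjusted p = 6.45e-06). The steepest rising slopes were those of KIF20A at 0.18 (SE 0.037, adjusted p = 0.000167), MKI67 at 0.12 (SE 0.028, adjusted p = 0.00072) and NEK2 at 0.10 (SE 0.024, adjusted p = 0.000654). Levels did not step evenly along the doses. Group means of KIF20A were 641 in DMSO and 594 at 0.1 nM, were lower at 1 nM (547) and 5 nM (498), stood near DMSO at 100 nM (650.4) and reached 904 at 500 nM and 1051 at 1000 nM. With the control ratio as a covariate 0 of the 49 slopes were called (limma), and 34 of all 12174 genes.

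Most calls came at doses above 100 nM. At 500 nM compared with 100 nM, 7 genes were higher and 16 lower, beside 18.8% and 21.5% of all genes. CDCA3 had the largest fall in this step (-0.57, SE 0.063, adjusted p = 7.94e-08), with 826, 955 and 805 at 500 nM, against 1309, 1341 and 1217 at 100 nM, and MKI67 and KIF20A had the largest rises (0.46 and 0.46). These groups did not overlap for CDCA3. At 1000 nM compared with 500 nM, 6 genes were higher and 14 lower, beside 15.4% and 31.8%. The 5 lowest in this step were KIF18A at -0.64 (SE 0.086, adjusted p = 1.54e-06), NDC80 at -0.49 (SE 0.067, adjusted p = 1.83e-06), BUB1B at -0.44 (SE 0.066, adjusted p = 7.07e-06), KIF20B at -0.42 (SE 0.076, adjusted p = 7.62e-05) and CENPE at -0.37 (SE 0.076, adjusted p = 0.00034). The 5 highest were CDCA8 at 0.45 (SE 0.086, adjusted p = 0.00014), UBE2C at 0.29 (SE 0.069, adjusted p = 0.00133), NEK2 at 0.25 (SE 0.083, adjusted p = 0.0182), KIF20A at 0.22 (SE 0.088, adjusted p = 0.0446) and CCNA2 at 0.20 (SE 0.043, adjusted p = 0.00058). KIF18A, NDC80, BUB1B, KIF20B and CENPE at 1000 nM lay below every 500 nM culture. The calls of KIF20A and NEK2 in this step were lost without 500 nM replicate 2 (adjusted p = 0.336 and 0.0839). KIF20A lost it without 1000 nM replicate 1 (0.105) or 2 (0.123), or without any of 6 arrays of DMSO or lower doses (0.0501 to 0.0512).

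CDKN1A, the inhibitor p21 that acts upstream of DREAM, rose from 50 nM on. Its levels were 5437, 5385 and 5758 with 50 nM, 6376, 6543 and 5883 with 100 nM, 8407, 8124 and 7370 with 500 nM and 6784, 6606 and 6832 with 1000 nM, against 4588, 4479 and 4920 in DMSO. All cultures from 50 nM on were above DMSO, and the log2 differences were 0.24 (adjusted p = 0.0422) at 50 nM, 0.43 (adjusted p = 1.25e-05) at 100 nM, 0.77 (adjusted p = 6.77e-12) at 500 nM and 0.53 (adjusted p = 2.9e-09) at 1000 nM. At 50 and 100 nM the 49 genes had 1 call each, the fall of AURKA. Among 13 tested genes of p53 and cell cycle arrest, CDKN1A included, 7 rose and 3 fell at 1000 nM, where 27.3% of all genes rose and 35.8% fell. SFN, the 14-3-3 sigma protein that retains cyclin B-CDK1 in the cytoplasm, rose by 1.20 (adjusted p = 7.32e-13), CDKN2B, an inhibitor of CDK4 and CDK6, by 1.04 (adjusted p = 7.82e-12) and CDKN2D, of the same family, by 0.55 (adjusted p = 6.76e-05). CDKN3, a phosphatase of CDKs, was at -0.70 (adjusted p = 3.97e-08), CDKN1B (p27) at -0.23 (adjusted p = 0.0266) and the checkpoint kinase CHEK2 at -0.19 (adjusted p = 0.0242). At 500 nM 6 rose and 3 fell, beside 25.2% and 24.8% of all genes, with SFN at 1.16, CDKN2B at 0.72, CHEK1 at -0.58, CDKN3 at -0.36 and CDKN2A at -0.22.

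Of 12 genes of the DREAM and MuvB complexes, 7 fell and 0 rose at each of the upper doses (limma), beside 35.8% of all genes lower and 27.3% higher at 1000 nM and 24.8% and 25.2% at 500 nM. At each dose 7 of the 12 also had an unadjusted p under 0.05. The MuvB subunit LIN9 was at -0.79 (adjusted p = 5.24e-08) at 1000 nM, the repressor E2F5 at -0.69 (adjusted p = 3.58e-07) and LIN52 at -0.63 (adjusted p = 1.93e-07). At 500 nM LIN52 was at -0.77, LIN9 at -0.54 and RBBP4 at -0.34. CHR hexamers in the promoter windows were counted by call, and the difference between calls was not tested. Of 15843 protein-coding genes, 15.8% had one in some window. At 1000 nM, 18 of 22 genes that fell had one, 4 of 8 that rose, and 9 of 12 that were not called. At 500 nM these were 16 of 20, 7 of 11 and 8 of 11. CDK1, whose window above holds a CHR hexamer and a CCAAT box, was among those that rose. There the hexamer stood at -161 bases from the start, ahead of the CCAAT box at -150, unlike the order in CDCA3 and KIF18A. The second CDK1 window, not printed, held CHR hexamers at -69, -13 and 9 bases from its own start and CCAAT boxes at -78 and -46.

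For each further gene group the background is the share of all genes, 27.3% higher and 35.8% lower at 1000 nM, and 25.2% and 24.8% at 500 nM. Of 15 tested regulators of mitotic entry, 4 rose and 4 fell at 1000 nM, and 2 rose and 3 fell at 500 nM, shares near or under those of all genes. Cyclin F (CCNF) was at -0.61 (adjusted p = 1.84e-05), lamin B1 (LMNB1) at -0.34 (adjusted p = 0.000151) and the PLK1 activator BORA at -0.23 (adjusted p = 0.0153), while CCNA1 was at 0.73 (adjusted p = 1.53e-07), CDC25A at 0.36 (adjusted p = 3.83e-05) and the APC/C inhibitor FBXO5 (EMI1) at 0.28 (adjusted p = 0.00092). At 500 nM CCNF was at -0.67, BORA at -0.50, FBXO5 at -0.40, PBK at 0.15 and CCNA1 at 0.24. Among 33 other kinetochore and centromere genes, 18 fell and 5 rose at 1000 nM, and 19 fell and 2 rose at 500 nM. OIP5 was at -0.93 (adjusted p = 3.34e-11), KNTC1 at -0.79 (adjusted p = 1.56e-11) and the checkpoint protein MAD1L1 at -0.78 (adjusted p = 1.31e-06), against rises of CENPQ (0.60, adjusted p = 1.21e-05), CENPW (0.48, adjusted p = 1.24e-08) and CENPN (0.43, adjusted p = 1.62e-06). At 500 nM CENPL was at -0.62, OIP5 at -0.62, MIS12 at -0.52, CENPW at 0.45 and CENPN at 0.19.

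Of 15 genes of the anaphase-promoting complex and its enzymes, 5 fell and 3 rose at 1000 nM, and 5 fell at 500 nM. ANAPC10 was at -0.60 (adjusted p = 3.82e-09), CDC27 at -0.38 (adjusted p = 4.07e-06) and ANAPC16 at -0.29 (adjusted p = 1.18e-05) at 1000 nM, beside UBE2S at 0.70 (adjusted p = 0.000186), ANAPC2 at 0.35 (adjusted p = 0.0137) and ANAPC5 at 0.31 (adjusted p = 0.00119). At 500 nM ANAPC10 was at -0.46, CDC27 at -0.32 and ANAPC15 at -0.23. Of 18 genes of condensin and cohesin, 9 fell and 3 rose at 1000 nM, and 5 fell at 500 nM. The cohesin subunit STAG1 was at -1.15 (adjusted p = 1.1e-12), the release factor WAPL at -0.81 (adjusted p = 1.24e-07) and PDS5B at -0.66 (adjusted p = 3.22e-07), beside sororin (CDCA5) at 0.93 (adjusted p = 2.28e-07), NCAPH2 at 0.53 (adjusted p = 0.000791) and RAD21 at 0.18 (adjusted p = 0.0101). At 500 nM STAG1 was at -0.84, WAPL at -0.50 and SMC3 at -0.36.

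Among 29 other spindle, centrosome and cytokinesis genes, 13 fell and 9 rose at 1000 nM, and 14 fell and 7 rose at 500 nM. PSRC1 was at -1.13 (adjusted p = 2.36e-11), the kinesin KIF15 at -0.76 (adjusted p = 3.98e-08) and HAUS1 of the augmin complex at -0.69 (adjusted p = 2.73e-11), beside the stress-responsive kinases PLK2 at 1.10 (adjusted p = 4.31e-08) and PLK3 at 0.86 (adjusted p = 1.72e-06), and PIMREG at 0.73 (adjusted p = 3.33e-07). At 500 nM PSRC1 was at -0.96, DEPDC1 at -0.62, KIFC1 at -0.48, PLK3 at 1.22, PLK2 at 1.08 and FAM83D at 0.41. Of 40 genes of DNA replication and G1/S, 21 rose and 10 fell at 1000 nM, while 12 rose and 16 fell at 500 nM. Cyclin D1 (CCND1) was at 1.45 (adjusted p = 1.89e-10), cyclin E1 (CCNE1) at 1.12 (adjusted p = 1.29e-10) and GINS4 at 1.06 (adjusted p = 8.74e-09), beside the primase subunits PRIM1 at -0.99 (adjusted p = 1.65e-12) and PRIM2 at -0.68 (adjusted p = 4.68e-09) and the polymerase POLA1 at -0.83 (adjusted p = 2.19e-10). At 500 nM CCND1 was at 1.28, GINS4 at 0.77, MCM7 at 0.53, E2F2 at -0.89, GINS2 at -0.57 and CDC45 at -0.56. The median difference of these 40 genes was 0.17 at 1000 nM, beside -0.13 for the G2/M and mitosis genes and -0.04 over all genes.

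Gene length moved with the change at 1000 nM. Across the 49 genes, the Spearman correlation of the log2 difference with the length of the gene in the genome was -0.28, beside -0.39 across 12116 other genes, and these genes share the same arrays and are not independent replicates. The 13 genes longer than 50 kb had a median difference of -0.42 at 1000 nM, and the 36 shorter ones -0.10. In the rest of the genes these medians were -0.28 and 0.06. At 500 nM the correlation was -0.01 across the 49 genes and -0.30 across the others. The part of gene length in the falls was not tested.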

How the data were processed

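RNA of 29 cultures, exposed for 24 h in 10 groups, was amplified and hybridised to 1-colour arrays. The authors deposited linear intensities, with 1 value for each probe set on each array, made with GCOS per the submitters' processing notes; its version and settings are not given in the sources used here. Trimmed means (2% at each end) of 299 to 309 differed by 3.18% across arrays, so levels are relative to a common scale, and a change in total RNA per cell would not show. In 11129 of the 54675 probe sets the median value stood exactly on more than 1 array, 7 of them probe sets used for the genes described (BUB3, MAD2L1, INCENP, BIRC5, CDCA8, NUF2 and KIF20B), a step not described in the sources used here. One dose lies below the range in the submitters' design text; group labels were taken from the sample titles.

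From these values log2(intensity + 16) was computed without further normalization. Group means were fitted with limma 3.58.1 (R 4.3.3; two-sided, empirical Bayes moderation that follows the mean-variance trend, residual df of 19) over the 27307 probe sets at or above the median level (log2 5.74), and Benjamini-Hochberg adjusted over all of them; a call is an adjusted p below 0.05. A gene was read through its brightest probe set with 1 gene symbol; 41091 probe sets had 1, 1801 several and 11721 none. The dose trend is a slope per log10 dose over 26 treated arrays. On simulated data for 1000 nM against DMSO (27307 probe sets, 200 changed at this dose alone and others along the doses), 25% of 1.2-fold and 75% of 1.5-fold rises were recovered. In the measured data 16345 of the 27307 probe sets were called at this dose. The adjustment is looser where more change, so the simulated percentages do not give the recovery in the measured data. Figures were drawn with matplotlib 3.10.9.

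The 50 genes and the other gene lists were chosen with earlier results of these data known. Genes given with all values were 14 chosen by name, the 6 largest called rises and falls at 1000 and 500 nM, up to 3 called each way at lower doses, the 3 steepest slopes and the 5 largest steps between 1000 and 500 nM each way, and, from other lists, up to 3 called each way. Replicate numbers carried no stated pairing. In their deviations 37 of 126 pairs of same-numbered arrays correlated above 0.1, beside 57 of 252 pairs of other-numbered arrays. The median correlations were 0.014 and -0.02. Alternatives covered the offset, normalization, level filter, variance model, replicate block, probe set rule, RNA quality, size of change, samples in the fit and each array left out.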

Additional observations from a re-analysis of the deposited data

How the results depend on the processing

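The number of the 49 genes called stayed within 1.5 times of the values reported (34 at 1000 nM, 33 at 500 nM, 35 in the trend, 20 for 1000 nM against 500 nM and 23 for 500 nM against 100 nM) under another offset, quantile normalization, median centring, either level filter and a fit without a mean-variance trend. Called and at least 1.5-fold were 7 genes at 1000 nM, 1 at 500 nM, 0 at doses up to 100 nM, 1 for 1000 nM against 500 nM and 0 for 500 nM against 100 nM. The count at doses up to 100 nM, 4 genes, became 1 with median centring, 0 with no level filter, 1 without a mean-variance trend and 8 with the 3′ to 5′ ratio as a covariate. With that covariate 0 slopes were called in the trend (limma). It also moved the split of higher and lower calls to 12 and 12 at 1000 nM and to 12 and 16 at 500 nM, and the average over a gene's tested probe sets moved it to 15 and 22 and to 10 and 21. With the covariate 5397 of all 12174 genes were called at 1000 nM and 4898 at 500 nM. The cause was not tested.

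Leaving out 1 array at a time gave 30 to 35 calls at 1000 nM, 29 to 35 at 500 nM, 0 to 7 at doses up to 100 nM, 34 to 36 in the trend, 16 to 23 for 1000 nM against 500 nM and 20 to 29 for 500 nM against 100 nM. With the replicate block the counts were 33, 33, 3, 34, 20 and 23 in the same order, and the numbers are not known to pair the cultures. In 2 settings chosen after seeing the data, they were 35, 35, 5, 36, 24 and 31 without 5 nM replicate 3 and 500 nM replicate 3, and 34, 33, 4, 34, 20 and 23 without repeated medians.

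Signs turned under 2 settings. With the average over a gene's tested probe sets, the 1000 nM log2 differences were 0.019 for CCNA2, 0.0076 for BUB1, 0.11 for BUB3, 0.21 for AURKB, 0.30 for PLK4, 0.33 for ASPM, 0.38 for CKAP2 and -0.08 for MKI67. At 500 nM they were 0.14 for BUB3, -0.12 for ECT2 and -0.14 for MKI67, with PLK4 at 0.27 for 1000 nM against 500 nM and BUB3 at 0.14 for 500 nM against 100 nM. Slopes were 0.028 for BUB1, 0.037 for BUB3, 0.048 for AURKB, 0.059 for PLK4, 0.091 for ASPM, 0.064 for CKAP2, 0.022 for KIF23 and -0.0053 for MKI67. With the 3′ to 5′ ratio as a covariate, the 1000 nM differences were 0.072 for CCNA2, 0.51 for FOXM1, 0.017 for CDC20 and 0.027 for TPX2, and slopes were -0.012 for DLGAP5, -0.0085 for KIF2C, -0.0071 for KIF20A and -0.0024 for MKI67. The cause was not tested. Signal over background limited INCENP, which lay under the level minimum.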
